A study of Homo sapiens with 4 samples.

Results

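The tetraspanins TSPAN8, TSPAN1, TSPAN3, TSPAN13, TSPAN14, CD9, CD63, CD81, CD82 and CD151 were followed through 4 single-cell RNA libraries made from LNCaP, a human prostate cancer line, and its resistant derivatives. They are 10 of the 33538 genes in the count matrices and 10 of the 33 tetraspanins found there by symbol. The members were taken by symbol, and the set was chosen from earlier ratios of these same libraries, TSPAN8 for its level in RES-B. The levels and ratios below therefore describe the genes and test nothing about them.

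LNCaP is an androgen-dependent line from a lymph node metastasis. The library called LNCaP held parental cells given 0.1% DMSO, and LNCaP-ENZ48 held parental cells given 10 µM enzalutamide, an antiandrogen drug, for 48 h. RES-A and RES-B are enzalutamide-resistant LNCaP derivatives kept in 10 µM enzalutamide. RES-A was raised by stepwise exposure to enzalutamide and RES-B by exposure to RD-162, a closely related compound, so selecting agent and line cannot be told apart. Each group was 1 library of sorted living cells. No spread between cultures could be measured, no p-value is given, and every interval below is a 95% interval that covers counting error alone.

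Tetraspanins are small proteins that cross the membrane several times and expose a short and a long extracellular loop, the long one carrying a conserved Cys-Cys-Gly motif. They gather integrins, immunoglobulin-family proteins, metalloproteases and one another into membrane microdomains, and through these they bear on adhesion, migration, receptor trafficking and the loading of extracellular vesicles. In epithelia CD9 and CD81 are near-ubiquitous, CD63 is a late-endosomal and vesicle protein, CD82 is known as a metastasis suppressor that is often low in prostate cancer, and TSPAN8 and TSPAN1 are best known from gastrointestinal and other carcinomas.

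After the study's own limits on genes, UMIs and mitochondrial reads per cell, between 1782 and 4569 cells remained per library. The LNCaP library was the deepest per cell, with a median of 27080 UMIs (unique molecular identifiers, each a counted RNA molecule), against 12138 to 13676 in the other libraries. Summed counts were therefore scaled to the library total, as counts per 1000000 UMIs (CPM), and shares of positive cells were taken after every cell had been thinned at random to 5000 UMIs. The luminal markers KRT8, KRT18 and EPCAM had 102.5 CPM or more in each library, while KRT5, KRT15 and TP63 of basal cells, PTPRC of leukocytes and COL1A2 of fibroblasts were at 0 in all 4. Other genes of the 8 immune and 8 stromal and endothelial markers were not all at 0. The immune list summed to 0.304 to 1.13 CPM, with 1 or 2 genes above 3 UMIs per library. The stromal and endothelial list summed to 4.03 to 7.91 CPM, with 4 or 5 genes above 3 UMIs. The basal list summed to 2.32 to 18.1 CPM. Nearly all of the basal sum was DST, a cytoskeletal linker. Pairs of libraries had 2 to 12 barcodes in common. Where values are given for the 4 libraries without further labels, they follow the order control, 48 h of drug, RES-A, RES-B, called library order below.

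The promoters of TSPAN8 and TSPAN1, the 2 members at least 2-fold higher in RES-B than in LNCaP, are shown. Over all genes measured, 4.82% of 7570 were as much higher there. Each is the 250 bases before a RefSeq start site (GRCh38.p14), printed 5′ to 3′ on the strand of the gene. The TSPAN8 window lies at chr12:71158000-71158249 on the minus strand, within an intron of longer TSPAN8 transcripts of GENCODE 44. The TSPAN1 window lies at chr1:46174837-46175086 on the plus strand, and its last 14 bases overlap an annotated first exon. Capitals mark TGTTTAC, the letters of a forkhead motif.
TSPAN8: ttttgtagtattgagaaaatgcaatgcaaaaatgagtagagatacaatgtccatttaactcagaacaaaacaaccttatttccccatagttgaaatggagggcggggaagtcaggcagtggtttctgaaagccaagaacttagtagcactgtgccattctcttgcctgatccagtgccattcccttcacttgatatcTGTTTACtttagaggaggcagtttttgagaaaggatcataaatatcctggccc
TSPAN1: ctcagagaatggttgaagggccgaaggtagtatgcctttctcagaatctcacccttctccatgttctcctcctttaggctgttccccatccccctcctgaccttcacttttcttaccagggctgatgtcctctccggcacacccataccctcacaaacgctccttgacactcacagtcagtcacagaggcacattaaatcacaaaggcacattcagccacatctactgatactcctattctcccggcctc
The forkhead letters of TSPAN8 begin 53 bases before the start shown and 243 bases before the start of a second, overlapping TSPAN8 window, which is not printed. The TSPAN1 window does not hold them on either strand. Searched on both strands, TGTTTAC or GTAAACA stood in 2.98% of 35116 RefSeq promoter windows of this length. Of the other members with an entry, TSPAN13, TSPAN14, CD9, CD63 and CD82, none held these letters. The letters of a TATA box, TATAAA or TTTATA, stood in 10.7% of all windows and in none of the windows of the members. A match is a description of letters, not a binding site. The windows shown for TSPAN8 and TSPAN1 were 40.8% and 51.2% G or C and the second TSPAN8 window 36%, against a median of 58% over all windows.

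TSPAN8 binds integrins and CD9 and is carried on vesicles of carcinoma cells. Its gene (ENSG00000127324) spans chr12:71125085-71441898 (GRCh38, GENCODE 44, as for every gene here) on the minus strand and overlaps LGR5 on the opposite strand. TSPAN8 was close to absent outside RES-B. Its summed level was 0.0996 CPM (interval 0.0323 to 0.232; 5 UMIs) in LNCaP, 0.0493 CPM (0.0102 to 0.144; 3 UMIs) in LNCaP-ENZ48, 0.680 CPM (0.484 to 0.930; 39 UMIs) in RES-A and 60.7 CPM (58.6 to 62.9; 3193 UMIs) in RES-B. The RES-B level thus stood apart from the other libraries, RES-A lay above both parental libraries, and the parental libraries did not differ beyond their counting error (log2 ratio -1.01, interval -3.70 to 1.35). RES-B against LNCaP gave a log2 ratio of 9.25 (8.03 to 10.88), a 610-fold difference whose interval is wide because LNCaP held 5 UMIs. RES-B against RES-A gave 6.48 (6.03 to 6.98), and RES-A against LNCaP gave 2.77 (1.43 to 4.47).

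**Figure D1:**
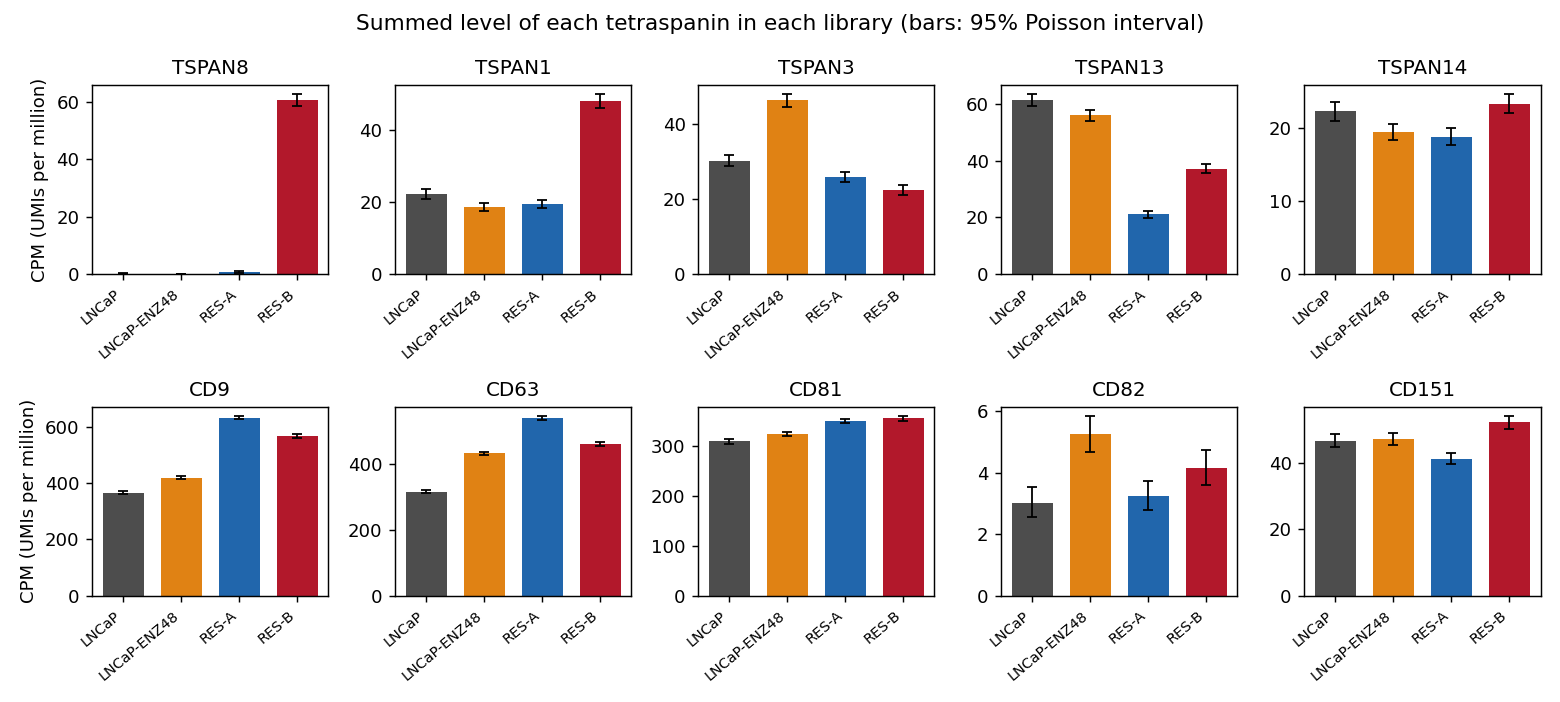
Summed level of each tetraspanin (y axis, CPM from 0, a separate scale per gene) in the 4 libraries (x axis). Bars are the value of the single library per group and error bars its exact 95% Poisson interval. TSPAN8 was 60.7 CPM in RES-B and at most 0.680 CPM elsewhere.

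The same order was seen over cells. After thinning, 1 of 1782 LNCaP cells (0.0561%), 0 of 4315 LNCaP-ENZ48 cells (which allows a share of up to 0.0695% by the limit of 3 counts, and 0.0855% by the exact binomial interval), 19 of 4569 RES-A cells (0.416%) and 899 of 4061 RES-B cells (22.1%, exact binomial interval 20.9 to 23.4) had a TSPAN8 UMI. Without thinning the shares were 0.281%, 0.0695%, 0.635% and 40.01%. In the libraries at low level, TSPAN8 UMIs were spread over 5 cells in LNCaP, 3 in LNCaP-ENZ48 and 29 in RES-A, with at most 3 UMIs in a cell, and none of these cells had a barcode that also occurred in RES-B. All libraries hold a single cell type, so a cell type that should lack TSPAN8 was not at hand. The part of free RNA in the RES-A value was not tested, and the share in LNCaP, a separate library, cannot measure it.

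Within RES-B, TSPAN8 was more uneven among cells than the other members. The variance of its thinned UMIs was 1.54 times the mean, where counting alone gives about 1, and 22.1% of cells were positive where a Poisson law with the same mean gives 26.9%. TSPAN1 at 1.06, CD151 at 1.05 and TSPAN13 at 1.03 were near counting noise, and CD9, CD63 and CD81 lay at 1.18, 1.17 and 1.10. In thinned RES-B cells 638 held 1 TSPAN8 UMI, 187 held 2, 53 held 3 and 21 held 4 to 7. The number of cells fell off steadily with no second peak, and the 1% of cells with the most TSPAN8 UMIs carried 9.49% of them.

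TSPAN8 also varied with cell state in RES-B. Cells assigned to G1 by cell cycle genes had 67.5 CPM (64.7 to 70.4), cells in S had 59.9 CPM (55.3 to 64.7) and cells in G2/M had 39.3 CPM (35.4 to 43.4). G2/M cells were lowest, with a log2 ratio to G1 of -0.78 (-0.94 to -0.62) and 14.7% positive cells against 23.3% in G1. Cells with a UMI of IGFBP5, an insulin-like growth factor binding protein, had 85.4 CPM of TSPAN8 and those without it 56.2 CPM (log2 ratio 0.60, 0.48 to 0.73), with 30.9% and 20.4% positive. In RES-A the same split gave 0.971 and 0.443 CPM, from 25 and 14 UMIs (1.13, 0.13 to 2.19). By contrast, RES-B cells with and without a UMI of KLK3, the androgen-induced gene of prostate-specific antigen, had 54.2 and 61.4 CPM (-0.18, -0.36 to -0.0015), and 21.7% and 22.2% were positive. These cells share 1 library, and the extra unevenness of TSPAN8 makes its counting intervals too narrow. RES-B cells below the median of total UMIs had 68.5 CPM and those above it 55.9 CPM, so the depth of the cell moved with the level as well, and its part in the phase and IGFBP5 differences was not tested.

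**Figure D2:**
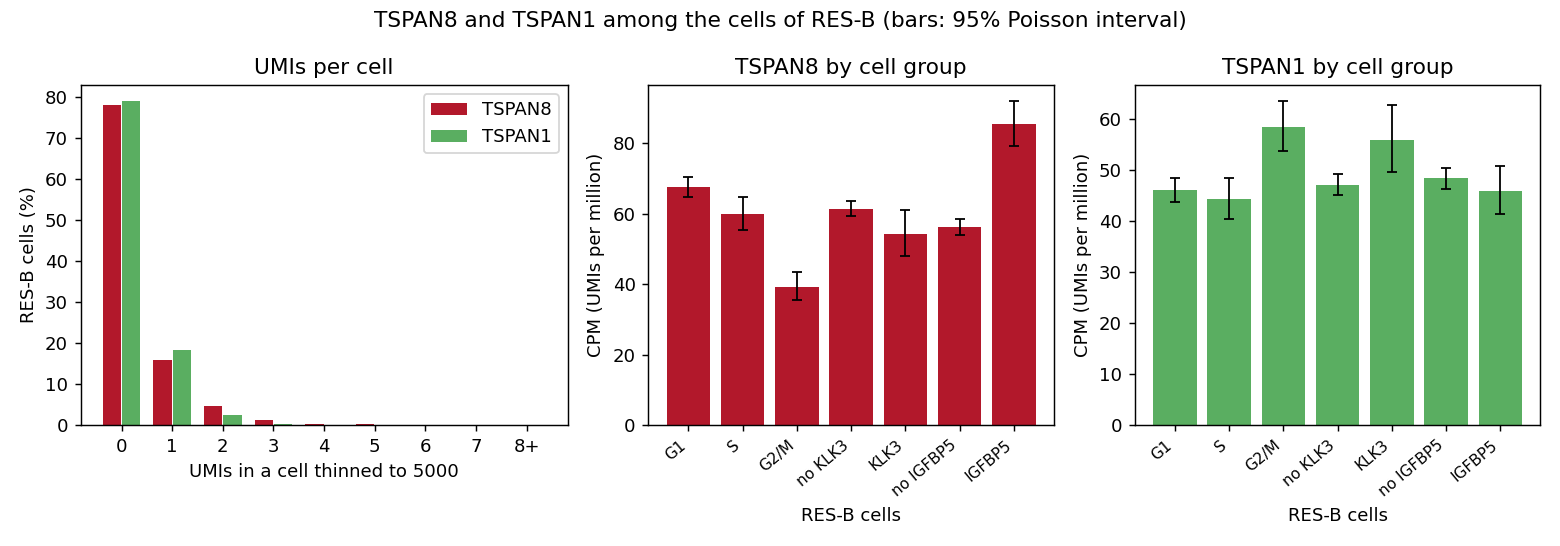
Left, share of RES-B cells (y axis, %) by the number of TSPAN8 or TSPAN1 UMIs after thinning to 5000 UMIs (x axis). Middle and right, CPM of TSPAN8 and TSPAN1 in RES-B cells grouped by cell cycle phase and by the presence of a KLK3 or IGFBP5 UMI, with 95% Poisson intervals. TSPAN8 was lowest in G2/M (39.3 CPM) and highest in cells with IGFBP5 (85.4 CPM), whereas TSPAN1 was higher in G2/M (58.4 CPM) than in G1 (46.0 CPM).

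Among genes that reach 50 CPM in at least 1 library, the 5 whose profile over the 4 libraries was nearest to that of TSPAN8 were VAV3, ADRA2A, PLA2G2A, LTN1 and TOX3, by Euclidean distance of centred log2(CPM + 1) values over 2908 candidates. VAV3, a guanine nucleotide exchange factor, was the nearest at a distance of 0.148, with 0.578, 0.510, 1.59 and 81.2 CPM in library order. ADRA2A, the alpha-2A adrenergic receptor, followed at 1.25, with 0.956, 2.01, 1.40 and 52.2 CPM. A likeness over 4 points that share libraries is a description. Across the 4061 RES-B cells, log-normalised TSPAN8 correlated at most weakly with any of 7469 genes, with Pearson's r from -0.12 (FTH1, ferritin heavy chain) to 0.13 (LMO4, a LIM-domain transcription cofactor).

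TSPAN1 is an epithelial tetraspanin found at the cell surface and in lysosomes. Its gene (ENSG00000117472) spans chr1:46175073-46185962 on the plus strand. Its level was 22.1 CPM (20.8 to 23.4) in LNCaP, 18.4 CPM (17.4 to 19.6) in LNCaP-ENZ48, 19.4 CPM (18.3 to 20.6) in RES-A and 47.9 CPM (46.1 to 49.8) in RES-B. RES-B stood above the other libraries, LNCaP-ENZ48 and RES-A lay within each other's intervals, and both lay slightly below LNCaP. The log2 ratio of LNCaP-ENZ48 to LNCaP was -0.26 (-0.38 to -0.14), that of RES-A was -0.19 (-0.31 to -0.07) and that of RES-B was 1.12 (1.01 to 1.22), a 2.17-fold difference. In cells assigned to G1 alone, the RES-B value was 0.99, just under the 2-fold limit. RES-B against RES-A gave 1.30 (1.202 to 1.407).

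The share of thinned cells with a TSPAN1 UMI was 10.3%, 8.88%, 9.10% and 21.1% in library order. Without thinning the deep LNCaP cells reached 42.6%, close to the 43.5% of RES-B, so the unthinned shares do not show the difference in level. Within RES-B, cells with and without a TSPAN8 UMI had 48.1 and 47.9 CPM of TSPAN1, and the correlation of the pair over cells was -0.0033. TSPAN1 ran the other way over the cell cycle of RES-B, with 46.0 CPM in G1 and 58.4 CPM in G2/M (log2 ratio 0.34, 0.20 to 0.49). The other libraries did not show this. In LNCaP-ENZ48 G2/M cells were below G1 cells (-0.36, -0.65 to -0.07). The values in LNCaP (-0.20, -0.43 to 0.03) and RES-A (-0.05, -0.28 to 0.18) did not differ from 0 beyond counting error. In LNCaP-ENZ48, cells that still had a KLK3 UMI had 27.9 CPM of TSPAN1 and cells without one 16.3 CPM (0.78, 0.58 to 0.97), and in RES-B the same split gave 55.8 and 47.1 CPM (0.24, 0.06 to 0.42). The genes nearest to the TSPAN1 profile were CDK19, a Mediator kinase (35.2, 29.3, 31.9 and 74.2 CPM, distance 0.0507 over 2909 candidates), COQ8A, PDIA4, LYPLAL1 and MLXIP. Over RES-B cells no gene correlated with TSPAN1 above an r of 0.066.

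The surroundings on the chromosome were examined because the resistant lines may differ from LNCaP over long stretches. Ratios here are relative to the median of all expressed protein-coding genes. In RES-B against LNCaP, the 50 expressed coding genes nearest to TSPAN8 had a median log2 ratio of 0.20, and none of them reached the 9.13 of TSPAN8 on this scale. The 50 around TSPAN1 had a median of 0.30, and none reached its 1.00. PTPRR, PIK3R3 and TTC39A were singled out after their values were seen. PTPRR, a receptor-type tyrosine phosphatase and the next such gene before TSPAN8 in coordinate order, was at 3.71 on this scale (start 487 kb away), the highest of the TSPAN8 neighbours. It counted as expressed only in the comparisons with RES-B (a mean of 10.2 CPM over RES-B and LNCaP), so it entered through the library in which it was high. In RES-B against RES-A it was at 1.49 on this scale, a smaller difference than from LNCaP. PIK3R3, a regulatory subunit of PI3 kinase whose start lies 135 kb from that of TSPAN1, was at 0.97, the value nearest to that of TSPAN1, and a readthrough transcript of PIK3R3 overlaps TSPAN1 on the opposite strand. TTC39A, another neighbour of TSPAN1, was at 0.94. Before the median was taken off, PIK3R3 was at 1.09 and TTC39A at 1.06. Both values lie within the counting interval of TSPAN1 given above.

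**Figure D3:**
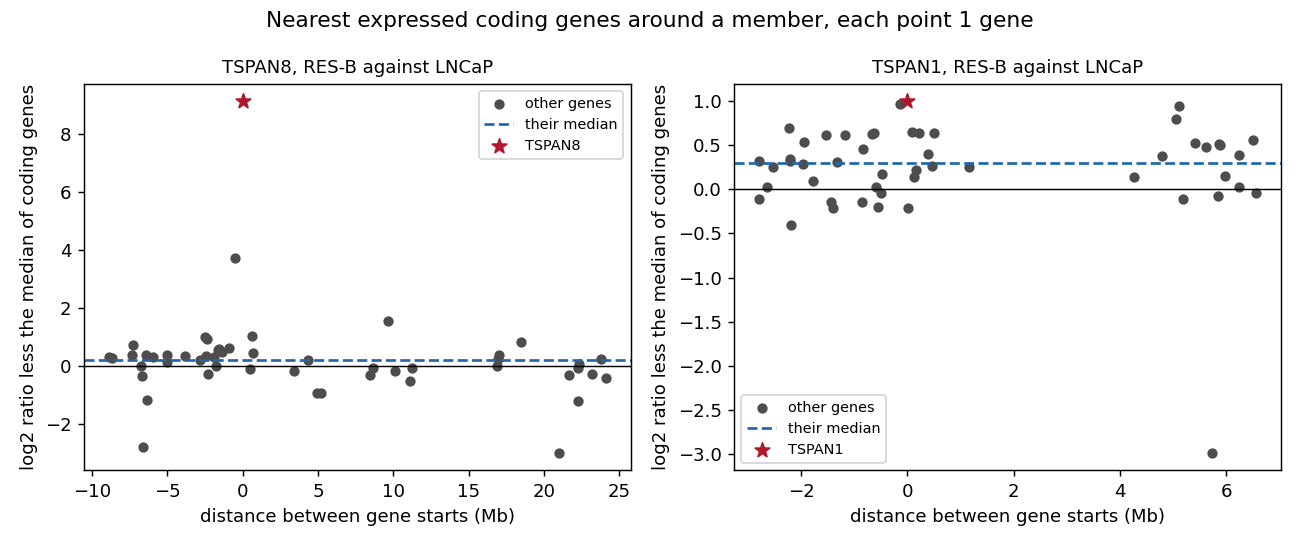
Log2 ratio of RES-B to LNCaP less the median of expressed coding genes (y axis) for the 50 expressed coding genes nearest to TSPAN8 (left) and TSPAN1 (right), against the distance between gene starts in Mb (x axis). Points are single genes, the dashed line is their median (0.20 and 0.30) and the star is the tetraspanin itself (9.13 and 1.00).

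TSPAN13 and TSPAN3, less studied members, moved apart from TSPAN8 and TSPAN1. TSPAN13 (ENSG00000106537, chr7:16753755-16784536, plus strand) had 61.4, 56.1, 21.1 and 37.2 CPM in library order. It was lowest in RES-A and intermediate in RES-B, with log2 ratios to LNCaP of -0.13 (-0.20 to -0.06), -1.54 (-1.64 to -1.45) and -0.72 (-0.80 to -0.64). Its thinned share of positive cells had the same order, at 26.7%, 24.2%, 10.3% and 16.5%. In LNCaP, G2/M cells had 77.0 CPM of TSPAN13 and G1 cells 60.0 CPM (0.36, 0.24 to 0.48), and the same log2 ratio was 0.19 (0.04 to 0.33) in LNCaP-ENZ48, -0.07 (-0.29 to 0.15) in RES-A and 0.19 (0.02 to 0.35) in RES-B. The 50 coding genes around TSPAN13 had a relative median of -0.07 in RES-A, where TSPAN13 itself was at -1.57 and 1 neighbour was lower.

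TSPAN3 (ENSG00000140391, chr15:77041404-77083984, minus strand) had 30.3, 46.4, 25.9 and 22.4 CPM in library order. It was highest after 48 h of enzalutamide, 1.53-fold above LNCaP (log2 0.61, 0.52 to 0.70), and lowest in RES-B (-0.43, -0.54 to -0.32). The thinned shares of cells were 15.1%, 21.0%, 12.9% and 10.54%. TSPAN3 was above all of its 50 coding neighbours in LNCaP-ENZ48 against LNCaP. In RES-A and RES-B its neighbours on chromosome 15 had relative medians of -0.42 and -0.33, beside -0.25 and -0.55 for TSPAN3, so in RES-A its lower level was smaller than that of the stretch around it.

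TSPAN14, one of the tetraspanins that escort the protease ADAM10 to the cell surface, varied little. Its levels were 22.2, 19.4, 18.8 and 23.3 CPM, with log2 ratios to LNCaP of -0.20, -0.24 and 0.07 (-0.05 to 0.19 for the RES-B value, which turned to -0.04 with trimmed-mean scaling). TSPAN14 (ENSG00000108219, chr10:80454265-80533124, plus strand) was found in 11.2%, 9.29%, 8.95% and 11.2% of thinned cells. ADAM10 itself had 36.4, 35.4, 23.4 and 24.5 CPM, lower in both resistant lines at -0.63 (-0.74 to -0.53) in RES-A and -0.57 (-0.67 to -0.47) in RES-B.

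CD9 and CD63, which are widely used as vesicle markers, were higher in each of the enzalutamide-exposed libraries than in LNCaP, by less than 2-fold. CD9 (ENSG00000010278, chr12:6199715-6238271, plus strand), a partner of integrins and of the EWI immunoglobulin proteins, had 365, 418, 632 and 568 CPM in library order. Its log2 ratios to LNCaP were 0.20 (0.17 to 0.22), 0.79 (0.77 to 0.82) and 0.64 (0.61 to 0.66). Within LNCaP-ENZ48, cells above the median of total UMIs had 397 CPM of CD9 and the others 451 CPM (log2 ratio -0.18). The same ratio was -0.04 in LNCaP, -0.10 in RES-A and 0.04 in RES-B. LNCaP cells were deeper, and the part of depth in the ratios to LNCaP was not tested. The thinned share of CD9-positive cells was 80.4%, 85.2%, 94.7% and 92.2%. CD63 (ENSG00000135404, chr12:55725323-55729707, minus strand), which cycles between late endosomes and the surface, had 314, 430, 539 and 460 CPM, with log2 ratios of 0.45 (0.42 to 0.48), 0.78 (0.75 to 0.80) and 0.55 (0.52 to 0.58). Its shares were 75.8%, 87.8%, 92.0% and 88.9%. In every library CD63 was lower in G2/M than in G1 cells, by a log2 ratio between -0.39 in RES-B and -0.21 in RES-A. The neighbours of CD9 and CD63 also had positive relative medians, 0.24 and 0.31 in RES-A and 0.14 and 0.18 in RES-B, below those of CD9 (0.77 and 0.52) and CD63 (0.75 and 0.43).

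CD81, the closest relative of CD9 and a co-receptor on B cells, was nearly level at 309, 324, 349 and 355 CPM, with ratios to LNCaP of 0.07, 0.18 and 0.20. Its gene (ENSG00000110651) spans chr11:2376177-2397802 on the plus strand, and 78.2%, 79.7%, 81.8% and 82.1% of thinned cells were positive. RES-A and RES-B did not differ in CD81 beyond counting error (0.02, -0.01 to 0.05). CD151, which binds laminin-receptor integrins, was also nearly level, at 46.8, 47.3, 41.4 and 52.3 CPM. It was below LNCaP in RES-A (-0.18, -0.26 to -0.10) and above it in RES-B (0.16, 0.08 to 0.24). CD151 (ENSG00000177697, chr11:832887-839831, plus strand) was found in 20.9%, 21.4%, 18.5% and 21.7% of thinned cells. Both genes lie near the end of the short arm of chromosome 11, where their neighbours were lower in the resistant lines, with relative medians of -0.31 and -0.40 around CD81 and -0.35 and -0.38 around CD151 in RES-A and RES-B.

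CD82 (ENSG00000085117, chr11:44564427-44620358, plus strand) was detected at low depth, with 152 to 319 UMIs per library and 1.68% to 2.94% of thinned cells positive, and its mean level stayed under the 10 CPM required for the counts below. Its levels were 3.03, 5.24, 3.24 and 4.15 CPM. It was highest in LNCaP-ENZ48 (log2 ratio 0.79, 0.51 to 1.08), higher than LNCaP in RES-B (0.45, 0.15 to 0.76) and not distinguishable from it at this depth in RES-A (0.10, -0.22 to 0.42). CD82 was lower in G2/M than in G1 cells of LNCaP, at 1.90 against 3.51 CPM (-0.89, -1.67 to -0.18), and in LNCaP-ENZ48 the values did not differ beyond counting error (-0.20, -0.76 to 0.31). The same comparison gave 1.14 against 4.23 CPM in RES-A (-1.89, -2.83 to -1.06) and 1.66 against 5.25 CPM in RES-B (-1.66, -2.50 to -0.92).

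**Figure D4:**
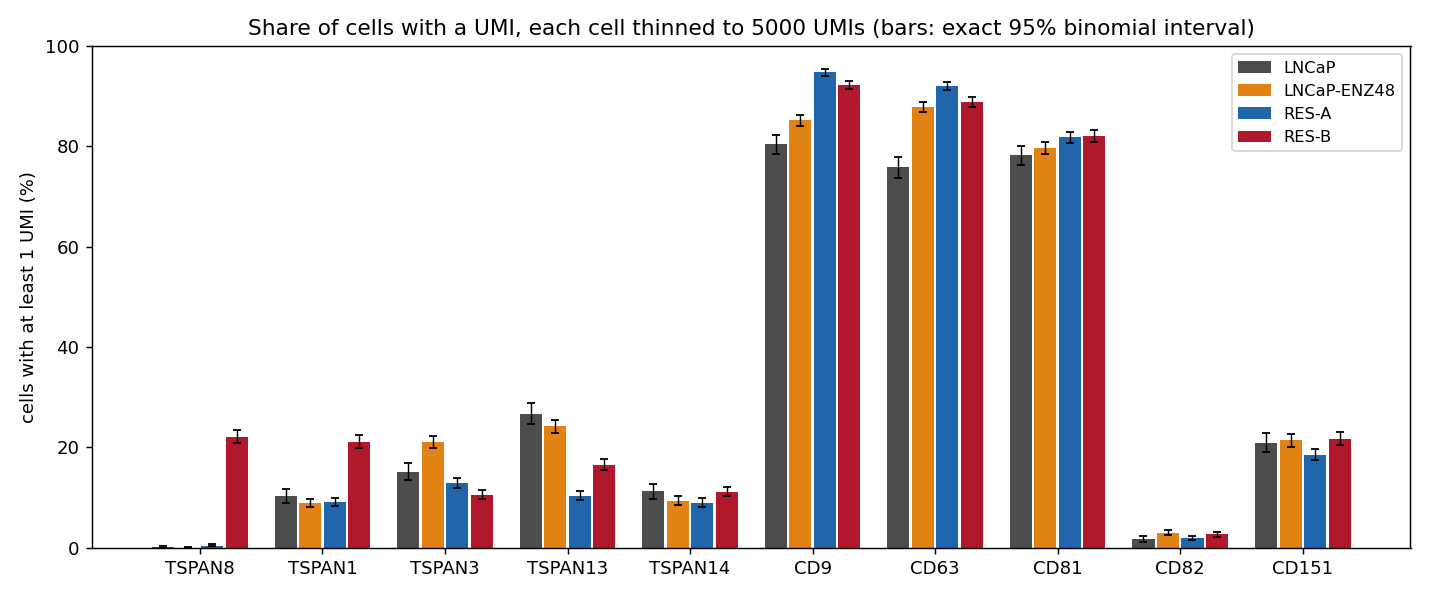
Share of cells with at least 1 UMI of each tetraspanin (y axis, %) after every cell was thinned to 5000 UMIs, for the 4 libraries (colours). Error bars are exact 95% binomial intervals. TSPAN8 was found in 22.1% of RES-B cells and TSPAN1 in 21.1%, and CD9, CD63 and CD81 were found in over 75% of the cells of each library.

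The members were set against all genes whose level averaged 10 CPM or more over the pair of libraries compared. In LNCaP-ENZ48 against LNCaP, 0 of 8 members were at least 2-fold higher or lower, where 0.192% and 0.645% of 7282 genes were. In RES-A against LNCaP, 0 of 8 were higher and 1, TSPAN13, was lower, against 3.74% and 4.15% of 7428 genes. In RES-B against LNCaP, 2 of 9, TSPAN8 and TSPAN1, were higher and 0 were lower, against 4.82% and 3.08% of 7570 genes. In RES-B against RES-A the same 2 of 9 were higher and 0 were lower, against 3.37% and 1.70% of 7508 genes. Since these contrasts were known when the set was made, and 3 of the 4 share the LNCaP library, nothing is read from these counts. TSPAN8 passed the 10 CPM limit through RES-B alone.

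The median log2 ratio of the members past that limit was 0.04 for LNCaP-ENZ48, -0.18 for RES-A and 0.20 for RES-B against LNCaP, and 0.31 in RES-B against RES-A. The medians of all such genes were -0.07, 0.02, 0.11 and 0.09, so part of each small ratio in RES-B was common to all genes. Trimmed-mean scaling moved the RES-B median of all genes to 0.01, a shift of the same order as the RES-B ratios of TSPAN14, CD81 and CD151 and much smaller than those of TSPAN8, TSPAN1, TSPAN13 and CD9.

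**Figure D5:**
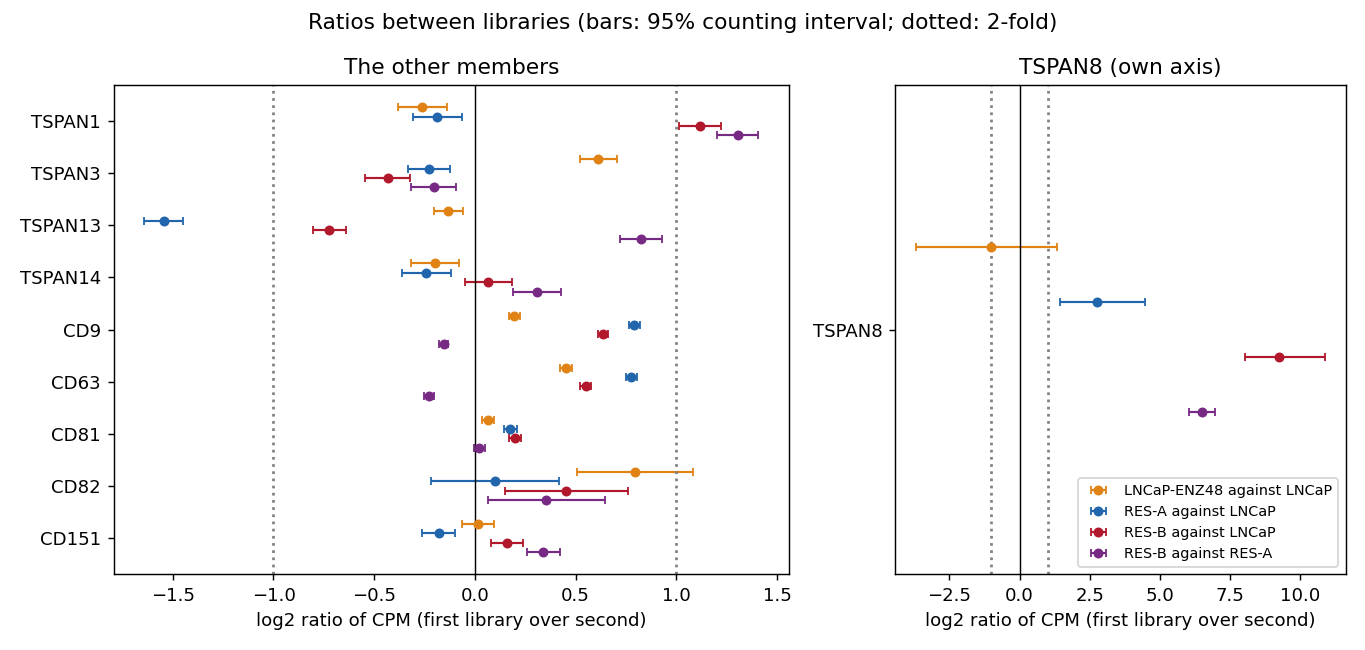
Log2 ratio of CPM (x axis) of each tetraspanin in the 4 comparisons (colours), with exact 95% counting intervals. TSPAN8 has its own axis, dotted lines mark 2-fold, and the 3 comparisons with LNCaP share that library. TSPAN1 lay beyond the upper line with RES-B and TSPAN13 beyond the lower line with RES-A.

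The other 23 tetraspanins were mostly at low level. TSPAN18, TSPAN19 and CD53, the latter a leukocyte tetraspanin, were at 0 in all libraries, and 5 of the 23 reached the 10 CPM limit in each comparison with LNCaP. TSPAN6 alone of these passed 2-fold, with 8.52, 6.76, 20.4 and 11.7 CPM in library order (RES-A log2 ratio 1.26, 1.09 to 1.42). Beside this stand 3.74% of 7428 genes at least 2-fold higher in RES-A. Being under 10 CPM in LNCaP, TSPAN6 passed the limit there through its RES-A level, so it had to be higher to be counted. TSPAN7 and TSPAN5 were named after their values were seen and lie under the limit against LNCaP. TSPAN7, known from neurons, had 0.976 CPM in LNCaP, 14.5 CPM in RES-A (3.89, 3.47 to 4.34) and 5.06 CPM in RES-B (2.37, 1.93 to 2.84). TSPAN5, which like TSPAN14 escorts ADAM10, had 1.71 CPM in LNCaP, 10.8 CPM in RES-A (2.65, 2.33 to 2.996) and 7.61 CPM in RES-B (2.15, 1.81 to 2.50). Unlike TSPAN8, these genes were higher in RES-A than in RES-B, with log2 ratios of RES-B to RES-A of -0.80 for TSPAN6, -1.52 for TSPAN7 and -0.50 for TSPAN5. TSPAN4 and TSPAN33, also named after their values were seen, were lower in both resistant lines than in LNCaP. TSPAN4 had 12.8, 15.8, 7.69 and 6.28 CPM in library order, and TSPAN33 had 12.5, 13.8, 6.96 and 9.87 CPM. Against LNCaP, TSPAN4 lay under the limit in RES-B and TSPAN33 in RES-A.

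The known partners of tetraspanins were mostly within 2-fold. Of 12 integrin genes 3 passed the limit against LNCaP, and ITGA6, the laminin-binding partner of CD151 and TSPAN8, was the single one past 2-fold, in RES-A (23.5 CPM in LNCaP against 11.4 CPM, -1.04), with 12.2 CPM and -0.95 in RES-B. Of 8 EWI and other membrane partners measured, EGFR, the epidermal growth factor receptor, was lower in RES-A (25.3 against 5.69 CPM, -2.15, -2.33 to -1.98) and at 15.7 CPM in RES-B. Of the vesicle genes, 0 of 14 passed 2-fold in LNCaP-ENZ48 and RES-A. In RES-B 1 of 15 did, RAB27B, a GTPase of vesicle docking, at 4.46 CPM in LNCaP and 18.3 CPM in RES-B (2.04, 1.83 to 2.25). RAB27B passed the 10 CPM limit in that comparison through its RES-B level, so it had to differ to be counted. The shares of all genes given above, such as 4.82% higher in RES-B and 4.15% lower in RES-A, stand beside these counts, which rest on few genes. Of 9 androgen-induced genes, 6 were at least 2-fold below LNCaP after 48 h of drug, 7 were in RES-A and 6 were in RES-B, beside 0.645%, 4.15% and 3.08% of all genes. KLK3 was the marker of this response, with 718, 94.97, 0.0349 and 30.5 CPM, an order that neither TSPAN8 nor TSPAN1 followed.

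The members are related but distant proteins. Translated from their canonical GENCODE 44 transcripts, they are 204 (TSPAN13) to 270 (TSPAN14) residues long, with 237 for TSPAN8 and 241 for TSPAN1, and each holds at least 1 Cys-Cys-Gly triplet. Over the 45 pairs, identity in global alignment ran from 19.4% to 43.9%, with a median of 26.2% and the highest value for CD9 and CD81. TSPAN8 was 35.1% identical to CD9 and 30.5% identical to TSPAN1, so the 2 members at least 2-fold higher in RES-B are not the most similar pair. Over cells, the correlations between members lay between -0.061 and 0.066 in any library, and counts this sparse weaken any correlation. Split by a TSPAN8 UMI, RES-B cells with one had 6.02 CPM of CD82 and those without 3.62 CPM (log2 ratio 0.73, 0.30 to 1.15; 69 and 149 UMIs), with 4.23% and 2.18% of cells positive. Both genes were lower in G2/M cells, and the part of the cell cycle in this difference was not tested. CD81 was slightly lower in the TSPAN8-positive cells (-0.06, -0.11 to -0.01), and the intervals of the 7 other members held 0.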

How the data were processed

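Droplet single-cell RNA libraries (10x Chromium 3′, version 3 chemistry) were analysed, 1 per group. The deposited counts are whole UMIs per gene and cell, which the authors made with Cell Ranger 3.0.2 on a GRCh38 reference. Cells were kept by the study's limits for each library, 1500 to 5000 genes, 5000 to 25000 UMIs and at most 15% (LNCaP-ENZ48), 17% (RES-A) or 20% (RES-B) mitochondrial UMIs, and for LNCaP 3000 to 7000 genes, 16000 to 50000 UMIs and 15%. These left 50208831, 60838227, 57338101 and 52571787 UMIs, in the order control, 48 h of drug, RES-A, RES-B. The different limits hold LNCaP cells to a greater depth. Doublets were removed only as far as the upper limits do so. Counts were summed over kept cells and divided by the total. Intervals were exact Poisson for levels, exact binomial (Clopper-Pearson) for shares and conditional binomial for ratios. With 1 library per group there was no test. A count of 0 was set to 3 UMIs for a ratio. Phases were scored with scanpy 1.11.5 on thinned counts from published S (43 genes) and G2/M (54 of 56 genes) lists. Alternative scalings included TMM of edgeR 4.0.16. The ratio intervals were tried on simulated Poisson counts, the law they assume, so the trial does not cover unevenness beyond counting. The thinned cells were checked to hold 5000 UMIs each. Members and gene lists were chosen with earlier results of these data known. All 10 members were named, together with list genes past 2-fold at 10 CPM and the 5 genes nearest in profile, and those named after their values were seen are marked. Promoter letters come from RefSeq, with 3 members lacking an entry (TSPAN3, CD81, CD151).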

Additional observations from a re-analysis of the deposited data

Results flagged for a closer look

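TSPAN1 and CD151 differed from LNCaP in opposite directions in the resistant lines, with both counting intervals clear of 0. For TSPAN1 the log2 ratio to LNCaP was -0.19 in RES-A against 1.12 in RES-B. CD151 had -0.18 in RES-A against 0.16 in RES-B, where the median of all genes was 0.11. Each line was 1 library, so the difference between the lines was not tested against the spread between cultures.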

How the results depend on the processing

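The RES-B against LNCaP value of TSPAN1 was 0.99 in G1 cells alone, which left 1 member at least 2-fold higher, and 1.01 with TMM scaling. The medians of the members depended on scaling and on the minimum level. In LNCaP-ENZ48 the median was 0.14 with TMM and also with median-of-ratios scaling, and 0.13 at a minimum mean of 50 CPM. In RES-B against LNCaP it was 0.093 with TMM, 0.10 with median-of-ratios scaling, 0.11 on a total without mitochondrial and ribosomal protein genes, 0.33 at a minimum of 1 CPM and 0.55 at 50 CPM. At 50 CPM the RES-A median turned to 0.78 and that of RES-B against RES-A to -0.16, because fewer members were left, and the counts past 2-fold fell to 0 lower in RES-A, 0 higher in RES-B against LNCaP and 0 higher in RES-B against RES-A. Of 56 alternative values for the TSPAN8 and TSPAN1 ratios, 54 stayed within the counting interval. Only CD81 in RES-B against RES-A and TSPAN14 in RES-B against LNCaP changed sign under any scaling or cell filter, to -0.04 at the lowest for both. Shares of positive cells followed the thinning depth. No paired analysis was possible because each group was 1 library. Depth limits CD82 in all libraries and TSPAN8 outside RES-B.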
